A study of Homo sapiens with 12 samples.

Results

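The genes described here respond to low oxygen or control that response. They are the regulators of hypoxia-inducible factor (HIF) and targets of it outside glycolysis. The list holds 34 genes, given by name. All 34 were among the 25435 symbols of the count table, and all 34 were among the 13365 genes that passed the filter on low counts.

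HIF is a transcription factor made of an oxygen-sensitive alpha subunit, HIF1A or EPAS1, and a stable partner, ARNT. When oxygen is available, prolyl hydroxylases of the EGLN family mark the alpha subunit, and VHL, part of a ubiquitin ligase, has it degraded. When oxygen is low the alpha subunit persists, pairs with ARNT and binds DNA at a short core motif, ACGTG. Many solid tumours, gastric cancers among them, contain poorly oxygenated regions in which this response is active. Much of HIF control acts on protein stability, which RNA sequencing does not measure.

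RNA was sequenced from cells labelled as LMSU, a gastric cancer line, and as carrying the p53 variant R175H. There were 6 groups of 2 libraries. The knockout arm had no doxycycline: its control carried a GFP-marked construct named V2 and was labelled as having mutant p53, and its knockout carried a GFP-marked guide construct, sg-1, and was labelled as lacking it. The knockdown arm had doxycycline throughout: a scramble hairpin and a vector group were labelled as having mutant p53, and the groups with hairpins p53 shRNA-1 (shRNA 1) and p53 shRNA-2 (shRNA 2) as lacking it. Culture was in Ham's F-10 throughout, and the labels name no oxygen treatment. The arms differ in both doxycycline and construct, which cannot be told apart. The labels do not say whether the knockout is 1 clone, nor whether the 2 libraries of a group are separate cultures, so p values measure the spread between these libraries, which may be technical.

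Library totals ran from 9738094 to 16823246 counts. The biological coefficient of variation, the relative spread between libraries of a group beyond counting error, was 15.6% for the knockout arm but 3.08% for the knockdown arm. The 6 groups were fitted with a shared spread, and over all 12 libraries this coefficient was 9.55%. Tests in the knockout arm thus used a smaller spread than that arm showed, and tests in the knockdown arm a larger one. The knockout control libraries stood furthest apart: the chi-square per degree of freedom between them was 34.4, against 9.999 between the knockout libraries and 1.56 to 2.31 in the other groups. The gastric markers and most of the epithelial markers went against the labelled cell type. Of 9 gastric markers in the table, 4 were at 0 counts in all 12 libraries, and their summed level was 0.359 to 1.63 CPM, counts scaled to a common library size. Only 2 of 12 epithelial markers reached 10 CPM in every library, the keratin genes KRT8, at 63.9 to 207.7 CPM, and KRT18, at 184.7 to 282.7 CPM. The epithelial sum was 258.1 to 463.1 CPM. Of 14 fibroblast markers, 10 reached 10 CPM in every library. The fibroblast sum was 3138 to 4024 CPM in the knockout arm against 18150 to 22340 CPM in the knockdown arm. Endothelial markers summed to 72.5 to 142.4 CPM with 2 of 10 at 0 throughout, and leukocyte markers to 190.1 to 455.7 CPM with 3 of 11 at 0. In each of these lists only 1 marker reached 10 CPM in every library. They were TIE1, at 71.0 to 141 CPM, and CD68, at 187 to 451 CPM, which made up most of the sums.

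MIR210HG is the host transcript of miR-210, a microRNA known for its induction by hypoxia. The mature sequence is shown because the host transcript is among the results below. The mature microRNA itself was not measured by these mRNA libraries. RefSeq places hsa-miR-210-3p on the minus strand at chr11:568112-568133 (GRCh38.p14), and capitals mark its seed, bases 2 to 8.
hsa-miR-210-3p: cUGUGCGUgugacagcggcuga

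Promoters were searched for the HIF core motif ACGTG on both strands in the 250 bases before each listed start. RefSeq promoters (GRCh38.p14) were matched for 29 of the 34 genes, and 20 of the 29 (69%) held the motif, against 2850 of 9800 tested genes with a promoter (29.1%). The genes were chosen as HIF targets, so this describes the list and is no independent result. The motif CACGTG, an E-box that also reads as ACGTG on each strand, was present in 8 of 29 (27.6%) and in 11.1% of tested genes. Windows of 65 bases are shown for 5 genes that were higher with the p53 hairpins than with scramble (MIR210HG, BNIP3, P4HA1, AK4 and ANKRD37) and for LOX, which was not. Capitals mark each match, which reads CACGT where the motif is on the other strand and CACGTG where it is on both. Such a match is a description and not evidence of binding.
MIR210HG, minus strand, chr11:568593-568657: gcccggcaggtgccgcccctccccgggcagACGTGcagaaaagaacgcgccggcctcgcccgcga
BNIP3, minus strand, chr10:131982023-131982087: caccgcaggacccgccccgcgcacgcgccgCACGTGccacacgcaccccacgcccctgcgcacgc
P4HA1, minus strand, chr10:73096918-73096982: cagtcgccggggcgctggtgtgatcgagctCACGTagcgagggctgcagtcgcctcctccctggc
AK4, plus strand, chr1:65147429-65147493: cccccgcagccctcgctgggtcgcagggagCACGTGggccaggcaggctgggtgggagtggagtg
ANKRD37, plus strand, chr4:185396649-185396713: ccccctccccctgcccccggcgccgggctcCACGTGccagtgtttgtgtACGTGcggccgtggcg
LOX, minus strand, chr5:122078410-122078474: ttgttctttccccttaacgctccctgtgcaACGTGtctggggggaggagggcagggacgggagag

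In the knockdown arm many, but not all, of the hypoxia genes were lowest with scramble, and fewer also had both p53 hairpins below vector. Both scramble libraries lay below the other 6 knockdown-arm libraries for 18 of the 34 genes, against 9.08% of all tested genes. For 13 of the 34 the 3 levels were fully separated, with scramble below both hairpins and both hairpins below vector, against 2.57% of tested genes. That second count was chosen after the values were seen. The 13 genes were PPFIA4, BHLHE40, EGLN1, KDM3A, EGLN3, KDM4B, BNIP3, P4HA1, MXI1, MIR210HG, BNIP3L, FAM162A and NDRG1. Others lay differently: VEGFA and VHL were lowest in vector, and ARNT was lowest with the hairpins. In bulk RNA, fewer cells expressing a gene and less RNA per cell cannot be told apart.

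The hairpins were compared with each control to ask how mutant p53 knockdown affected these genes. A test of both hairpins used the average of shRNA 1 and shRNA 2, so its calls need not hold for each hairpin. In edgeR's quasi-likelihood test, with adjusted p below 0.05 over all tested genes, 15 of the 34 rose and 1 fell with both hairpins against scramble. The background was 3.11% of tested genes up and 3.66% down. The median log2 fold change was 0.29, against -0.005 over all tested genes. Against vector 3 rose and 17 fell, where the background was 8.04% up and 10.4% down, and the median was -0.32. Scramble itself was below vector for 21 genes and above it for 2, with a background of 8.16% down and 7.1% up, and a median of -0.56. The 1 that fell against scramble, the 3 that rose against vector and the 2 higher with scramble are shares near the background. These 3 comparisons share libraries. The direction of the hairpin difference thus changed with the control, and no untreated group was analysed here. Against the mean of scramble and vector, 9 rose and 5 fell, with a median of 0.036, where 11.8% of all tested genes were called. Fitted alone, with its smaller spread, the knockdown arm gave 19 up and 3 down against scramble, where 29.8% of all tested genes were called. Values and calls below are from the fit to all libraries unless stated. Some differences that did not pass there passed in the arm alone. The counts rested on few libraries, and each fit without 1 of them also called a smaller share of all tested genes. Against scramble 7 genes were called without scramble replicate 1 and 6 without scramble replicate 2, where 0.986% and 0.982% of all tested genes were called, 10 without either shRNA 1 library and 9 without shRNA 2 replicate 1. Against vector 8 were called without vector replicate 1 and 12 without vector replicate 2, where 6.65% and 7.24% of all tested genes were called.

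**Figure D1:**
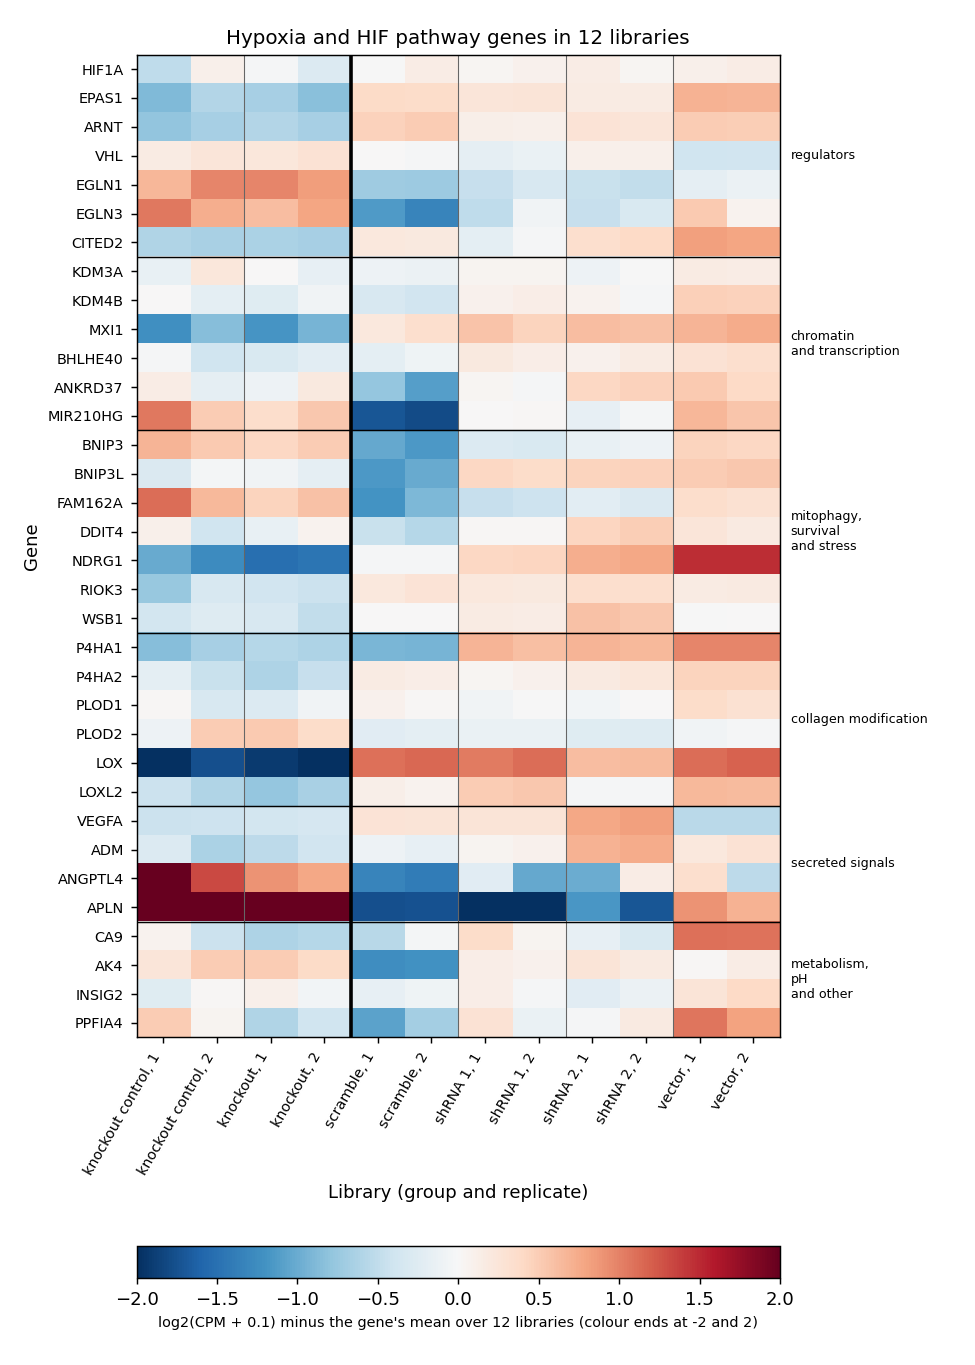
Level of each of the 34 genes in each of the 12 libraries, as log2(CPM + 0.1) minus the gene's mean over the 12 libraries (colour scale), with genes in rows by role and libraries in columns by group. Within the knockdown arm the scramble columns are the lowest for 18 of the 34 genes.

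Among the regulators, neither alpha subunit was called against scramble in the fit to all libraries. HIF1A was at 152 and 169 CPM in the scramble libraries, 156 and 162 under shRNA 1, 169 and 157 under shRNA 2 and 164 and 169 in vector. Its groups overlapped, and the interval of its log2 difference between the hairpins and scramble was -0.30 to 0.31. EPAS1, the other alpha subunit, was at 323 and 322 CPM with scramble, 293 and 299 under shRNA 1, 279.6 and 280.2 under shRNA 2 and 405 and 397 in vector. It fell against vector (-0.48, edgeR adjusted p 0.0022) and did not pass against scramble (-0.17, interval -0.35 to 0.02). In a fit to the knockdown arm alone EPAS1 was called down against scramble (-0.16), as was LOX (-0.26). In the fit to all libraries, only ARNT of the 34 genes was called lower with the average of both hairpins than with scramble. ARNT fell by 0.31 in log2 (SE 0.069, edgeR adjusted p 0.02), and it was not called with shRNA 2 alone. In the knockdown arm alone ARNT passed with each hairpin, at -0.385 with shRNA 1 and -0.224 with shRNA 2. Its levels were 139.9 and 144 CPM with scramble, 109 and 108 under shRNA 1, 123 and 119.7 under shRNA 2 and 144 and 142 in vector, so both controls lay above both hairpins. VHL was lowest in vector, at 66.97 and 67.5 CPM, against 88.3 and 86.5 with scramble, 77.6 and 79.9 under shRNA 1 and 94.3 and 94.03 under shRNA 2.

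The hydroxylase genes, which are HIF targets as well as brakes on it, lay in the order scramble, hairpins, vector. EGLN3 was at 2.83 and 2.47 CPM with scramble, 4.40 and 5.997 under shRNA 1, 4.58 and 5.08 under shRNA 2 and 9.13 and 6.62 in vector, with no overlap between scramble, hairpins and vector. As the average of both hairpins it rose against scramble by 0.91 (SE 0.23, edgeR adjusted p 0.033). With shRNA 2 alone it was not called (0.87), and in the knockdown arm alone EGLN3 passed with each hairpin. EGLN1 was at 33.6 and 33.2 CPM with scramble and 48.9 and 50.96 in vector, with the hairpin libraries between them at 39.01 to 44.2, and its hairpin difference of 0.29 did not pass (edgeR adjusted p 0.12). That difference passed in the fit to the knockdown arm alone (edgeR adjusted p 0.00067). CITED2, which competes with HIF for its coactivators, was at 144 and 142 CPM with scramble, 108 and 122 under shRNA 1, 156 and 163 under shRNA 2 and 218 and 214 in vector. It fell with shRNA 1 against scramble (-0.31, edgeR adjusted p 0.036), and its value with shRNA 2 was 0.16.

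Of 6 chromatin and transcription genes, 3 rose with the average of both hairpins against scramble and 5 were lower with scramble than vector. With shRNA 1 alone 3 of them rose against scramble, and with shRNA 2 alone 2 did. MIR210HG had the largest fitted difference of the 34 against scramble. It was at 3.72 and 3.52 CPM with scramble, 12.4 and 12.5 under shRNA 1, 10.96 and 12.004 under shRNA 2 and 19.7 and 18.1 in vector. Scramble, hairpins and vector did not overlap. It rose against scramble by 1.72 (interval 1.31 to 2.14), and the hairpins lay below vector by 0.66 (edgeR adjusted p 0.0086). ANKRD37, an ankyrin-repeat gene induced by HIF, was at 5.58 and 4.42 CPM with scramble, 9.80 and 9.42 under shRNA 1, 12.8 and 13.2 under shRNA 2 and 13.7 and 12.7 in vector. It rose against scramble by 1.16 (SE 0.16, edgeR adjusted p 0.0017), and its difference from vector did not pass (-0.24). The histone demethylase gene KDM4B rose by 0.41 from 39.5 and 37.7 CPM with scramble to 48.1 to 54.1 with the hairpins, below 68.1 and 67.4 in vector. KDM3A, another histone demethylase gene, had values of 60.7 to 61.6 CPM with scramble, 61.9 to 68.6 with the hairpins and 73.3 to 74.6 in vector, an order within which no difference passed in the fit to all libraries. In the knockdown arm alone, scramble (-0.28) and the hairpins (-0.16) passed against vector, and the hairpins did not pass against scramble. The repressors MXI1 and BHLHE40 were lower with scramble than vector (-0.44 and -0.45), and their hairpin values against scramble (0.28 and 0.29) did not pass. Both hairpin values passed in the fit to the knockdown arm alone (edgeR adjusted p 0.000135 and 2.5e-06).

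The mitophagy, survival and stress genes held the highest share of calls, with 6 of 7 up against scramble. BNIP3L, a receptor that marks mitochondria for autophagy, was at 84.02 and 92.3 CPM with scramble, 249 and 240.1 under shRNA 1, 253 and 255 under shRNA 2 and 265 and 271 in vector. Its increase against scramble was 1.499 (interval 1.31 to 1.69), and its difference from vector did not pass (-0.11, interval -0.28 to 0.071). BNIP3, its paralogue with the same role, was at 117 and 107 CPM with scramble, 196 and 192 under shRNA 1, 215 and 221 under shRNA 2 and 323 and 317 in vector. Here the hairpins lay between the controls, above scramble by 0.88 and below vector by 0.64 (edgeR adjusted p 0.00011).

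FAM162A, a mitochondrial protein gene of the hypoxia response, was at 10.2 and 12.5 CPM with scramble, 16.98 to 20.3 with the hairpins and 29.9 and 28.8 in vector, and rose against scramble by 0.70 (edgeR adjusted p 0.016). NDRG1, a stress-response gene, was at 929 and 929.8 CPM with scramble, 1252 and 1265 under shRNA 1, 1557 and 1612 under shRNA 2 and 2635 and 2616 in vector. All 4 groups were separate and vector was the highest. NDRG1 rose against scramble by 0.60 (SE 0.076) and lay below vector by 0.89 (SE 0.072). DDIT4, an inhibitor of mTORC1 signalling, was at 327 and 300.4 CPM with scramble, 452 and 450.2 under shRNA 1, 595 and 626 under shRNA 2 and 526 and 501 in vector, so that vector lay between the hairpins. Its increase against scramble was 0.74 (SE 0.12, edgeR adjusted p 0.0045). WSB1, part of a ubiquitin ligase, was at 80.1 and 80.5 CPM with scramble, 89.1 and 87.9 under shRNA 1, 119.7 and 115 under shRNA 2 and 79.3 and 79.8 in vector, and shRNA 2 was the highest group. Against scramble WSB1 was called with shRNA 2 (0.55) and not with shRNA 1 (0.14). RIOK3, a kinase gene, did not pass in this comparison (0.029, interval -0.19 to 0.25).

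**Figure D2:**
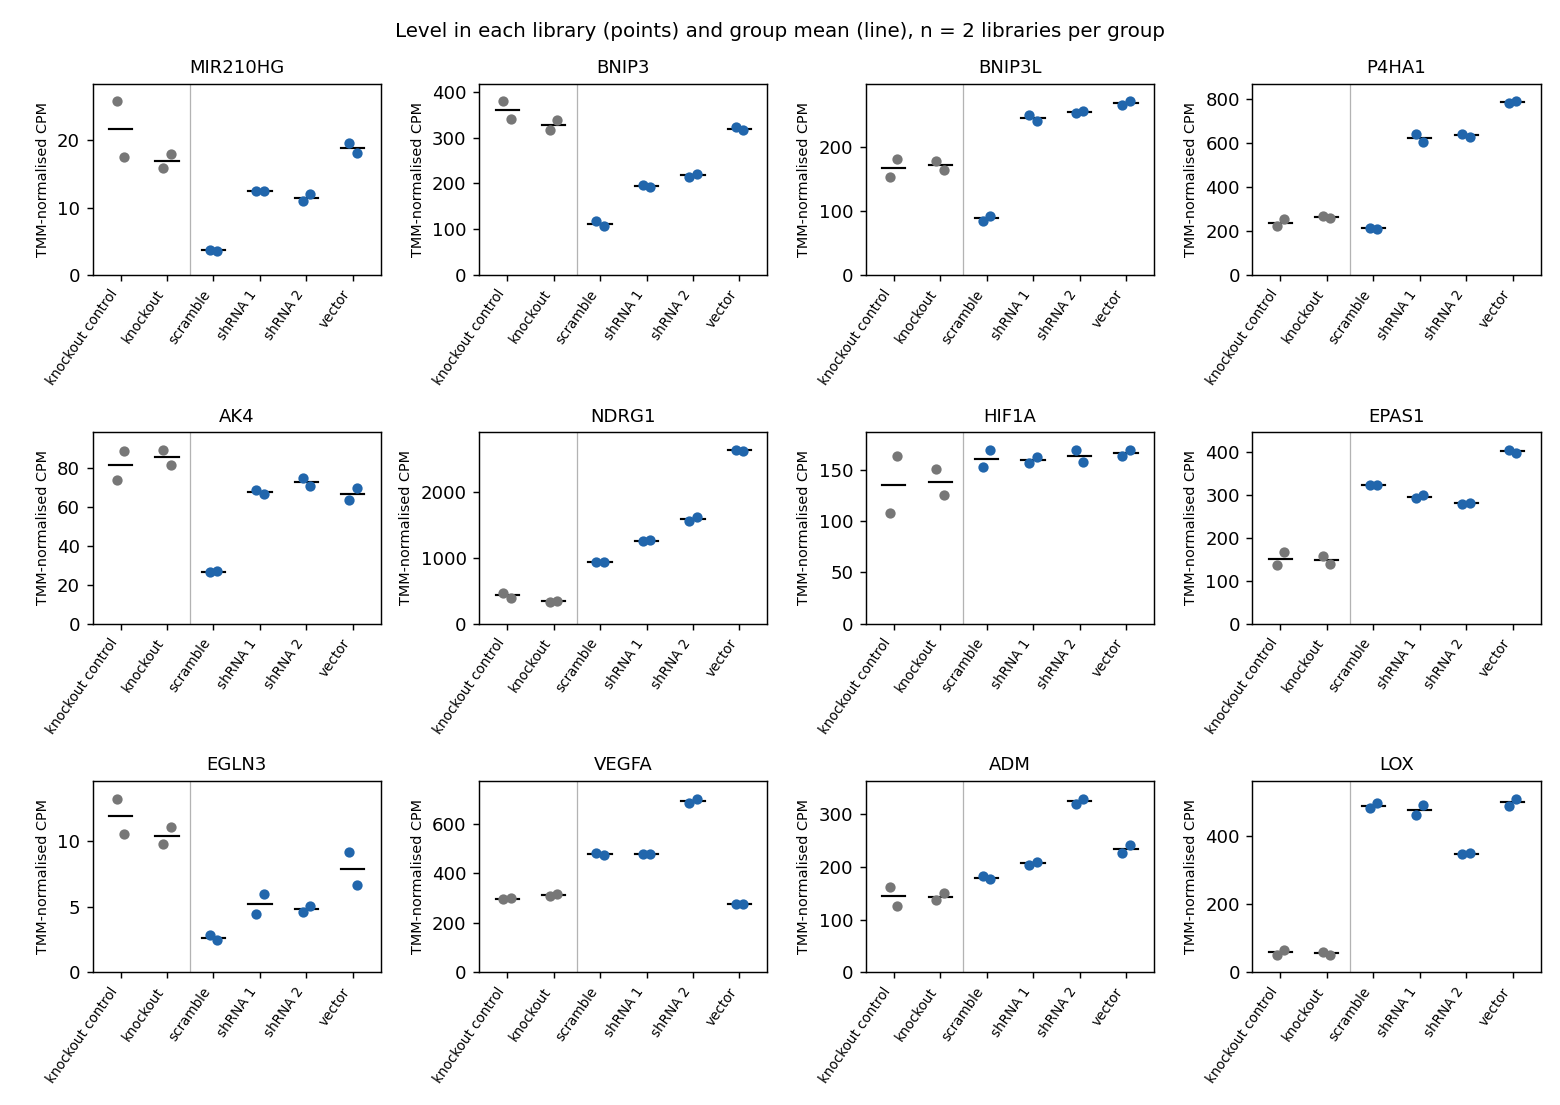
TMM-normalised CPM (vertical axes, linear and starting at 0) of 12 of the genes, with 1 point per library for the 6 groups and a line at each group mean. MIR210HG, BNIP3, BNIP3L, P4HA1 and AK4 are lowest with scramble within the knockdown arm, and the HIF1A points overlap between groups.

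Among 6 genes of collagen modification, P4HA1 stood apart. It encodes a catalytic subunit of the prolyl 4-hydroxylase that stabilises the collagen triple helix. Its level was 212 and 209 CPM with scramble, 642 and 603 under shRNA 1, 641 and 625 under shRNA 2 and 782 and 789.6 in vector. The hairpins did not overlap with either control: they were above scramble by 1.58 (interval 1.41 to 1.74) and below vector by 0.32 (edgeR adjusted p 0.0077). Its relative P4HA2 was at 228 and 223 CPM with scramble, 209 to 239 with the hairpins and 279 and 279 in vector, and was called only against vector (-0.32). The lysyl hydroxylase genes PLOD1 (-0.089) and PLOD2 (0.017) did not pass against scramble. LOX and LOXL2, lysyl oxidases that cross-link collagen, differed between the hairpins and are given with that comparison. The knockdown-arm fibroblast marker sums were 19210 to 19910 CPM with scramble, 18960 to 22340 with the hairpins and 18150 to 18180 in vector. Single markers moved more than the sums: of 12 tested, 3 rose and 1 fell with both hairpins against scramble, 8 rose and 1 fell against vector, and 6 were higher and 1 lower with scramble than with vector. DCN, a matrix proteoglycan gene, was 2.61 above vector with the hairpins and 2.22 above it with scramble, on the log2 scale. The part of these markers in the hypoxia gene differences was not tested.

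The secreted signals did not share 1 pattern. VEGFA, the main angiogenic growth factor, was at 483 and 476 CPM with scramble, 479.9 and 478 under shRNA 1, 684 and 702 under shRNA 2 and 275 and 275 in vector. Vector was the lowest group for VEGFA, and the hairpins were above vector by 1.07 (SE 0.062, edgeR adjusted p 2e-06). ADM, a vasodilator peptide gene, was at 183 and 176 CPM with scramble, 204 and 209.7 under shRNA 1, 319.9 and 329 under shRNA 2 and 227 and 240.5 in vector. Against scramble VEGFA and ADM were called with shRNA 2 (0.53 and 0.85) and not with shRNA 1 (-0.0021 and 0.21). APLN, the gene of the peptide apelin, had 81 and 86 counts in the vector libraries, 11 and 12 with scramble, 3 and 5 with shRNA 1 and 17 and 12 with shRNA 2. It was lower than vector with scramble (-2.66, interval -3.23 to -2.09) and with both hairpins (-3.06, interval -3.57 to -2.55). ANGPTL4, a regulator of lipoprotein lipase, had 3 to 13 counts per library in this arm, too few to show a difference at this depth (hairpins against scramble, interval -0.30 to 2.64).

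Of the metabolic and other genes, AK4, a mitochondrial adenylate kinase, was at 26.3 and 27.03 CPM with scramble, 68.6 and 66.3 under shRNA 1, 74.4 and 70.6 under shRNA 2 and 63.3 and 69.6 in vector. Scramble was the only low group. The hairpins were above it by 1.39 (SE 0.10, edgeR adjusted p 2.7e-05), and the difference between the hairpins and vector did not pass (0.073, interval -0.13 to 0.27). PPFIA4, a liprin scaffold gene, was at 1.70 and 2.25 CPM with scramble, 3.32 to 4.49 with the hairpins and 7.84 and 6.49 in vector, and rose against scramble by 0.98 (SE 0.24, edgeR adjusted p 0.031). CA9, a carbonic anhydrase that regulates pH at the cell surface, was at 1.86 to 2.70 CPM with scramble, 2.23 to 3.59 with the hairpins and 5.998 to 6.03 in vector. Vector was the only high group for CA9. INSIG2, a brake on cholesterol synthesis, was lower than vector with scramble (-0.46) and with the hairpins (-0.39).

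The position of the hairpins between the controls was calculated for the 21 genes called lower with scramble than with vector, with the scramble log2 level set at 0% and the vector level at 100%. The median position was 58.0%. AK4 lay past vector with both hairpins, at 102% with shRNA 1 and 110% with shRNA 2. For DDIT4 (73.7% and 135%) and ADM (53.9% and 224%) shRNA 2 alone lay past vector. BNIP3L was at 91.7% and 95.1%. As the mean of both hairpins, MIR210HG was at 72.3%, BNIP3 at 58.0%, NDRG1 at 40.3% and CA9 at 19.7%. The hairpins lay on opposite sides of scramble for LOXL2 (77.4% with shRNA 1 and -22.6% with shRNA 2), INSIG2 (40.9% and -10.5%), CITED2 (-52.6% and 26.6%) and APLN (-43% and 13.9%). These positions reuse the libraries that chose the 21 genes and are descriptive.

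**Figure D3:**
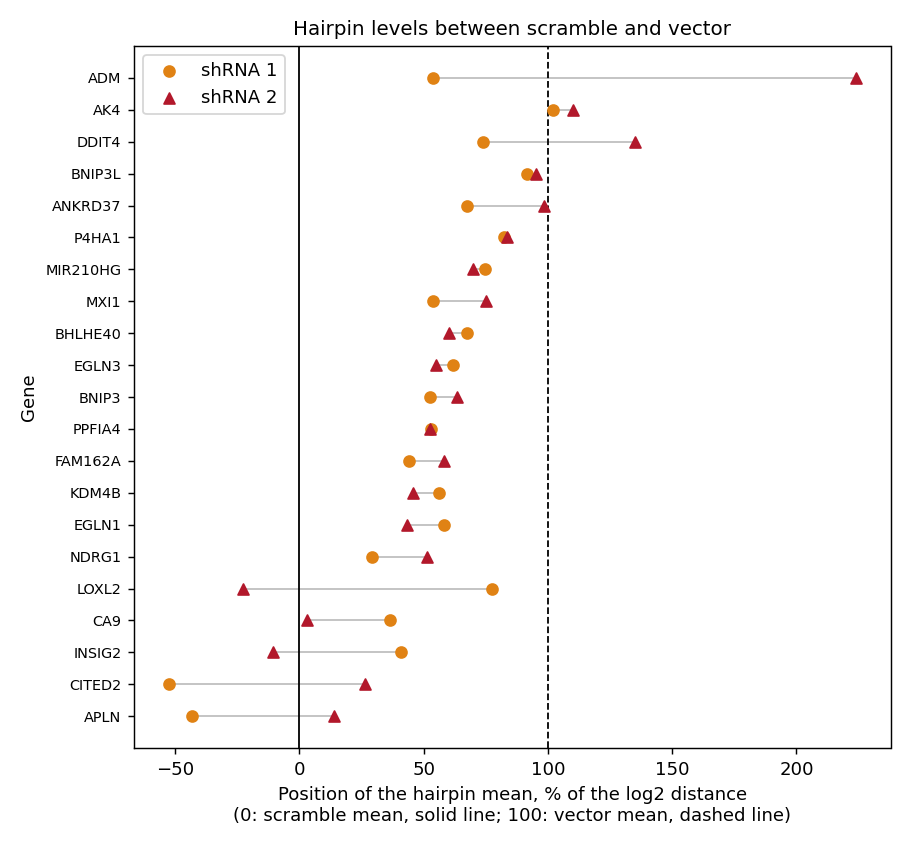
Position of each hairpin between scramble (0%) and vector (100%) on the log2 scale (horizontal axis), for the 21 genes called lower with scramble than with vector. The mean positions of the hairpins run from -14.5% for APLN to 139% for ADM, with a median of 58.0%.

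Each hairpin was also set beside scramble on its own. With shRNA 1, 13 genes rose and 2 fell (background 4.4% up and 5.01% down), and with shRNA 2, 13 rose and 1 fell (3.58% up and 4.15% down). Both comparisons use the same scramble libraries. Every fit without 1 library given in this paragraph also called a smaller share of all tested genes than the fit to all libraries. P4HA1 was 1.56 with shRNA 1 and 1.59 with shRNA 2, MIR210HG was 1.78 and 1.67, and BNIP3L was 1.47 and 1.53. Without 1 library at a time, shRNA 1 had 6 calls without scramble replicate 1 and 5 without scramble replicate 2 or either of its own libraries, and shRNA 2 had 10 to 11. Against vector, 1 gene rose and 13 fell with shRNA 1 (background 5.78% up and 7.26% down). There 5 were called without either vector library or either shRNA 1 library. With shRNA 2, 4 rose and 16 fell against vector (background 9.21% up and 11.7% down). That count was 12 without vector replicate 1 and 11 without either shRNA 2 library. A fit to the knockdown arm alone, with its smaller spread, called 23 for shRNA 2 against scramble and 27 for shRNA 1 against vector, where 31.5% and 40.7% of all tested genes were called.

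The hairpins were also compared with each other. With shRNA 1, 2 genes were higher and 6 lower than with shRNA 2, against a background of 7.07% up and 7.21% down. The 2 higher genes are a share near that background. VEGFA (-0.53, SE 0.068, edgeR adjusted p 0.00057), ADM (-0.65), APLN (-1.53), CITED2 (-0.47), WSB1 (-0.41) and NDRG1 (-0.33) were lower with shRNA 1. Of 4 secreted signals, 3 were among them. LOX was higher with shRNA 1 (0.45), at 463 and 491 CPM against 347 and 351, with scramble at 482 and 499 and vector at 489 and 511. LOXL2 was higher as well (0.54), at 565 and 576 CPM against 390.2 and 393, with scramble at 432 and 421 and vector at 622 and 621. For LOX it was shRNA 2 that stood below the other 3 groups. The 2 genes with the lowest adjusted p against scramble did not differ between the hairpins past the threshold, with intervals of -0.20 to 0.15 for P4HA1 and -0.26 to 0.15 for BNIP3L. The count between the hairpins was lower without any 1 hairpin library, as was the share of all tested genes called. It was 17 in the fit to the knockdown arm alone, where 38.8% of all tested genes were called.

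**Figure D4:**
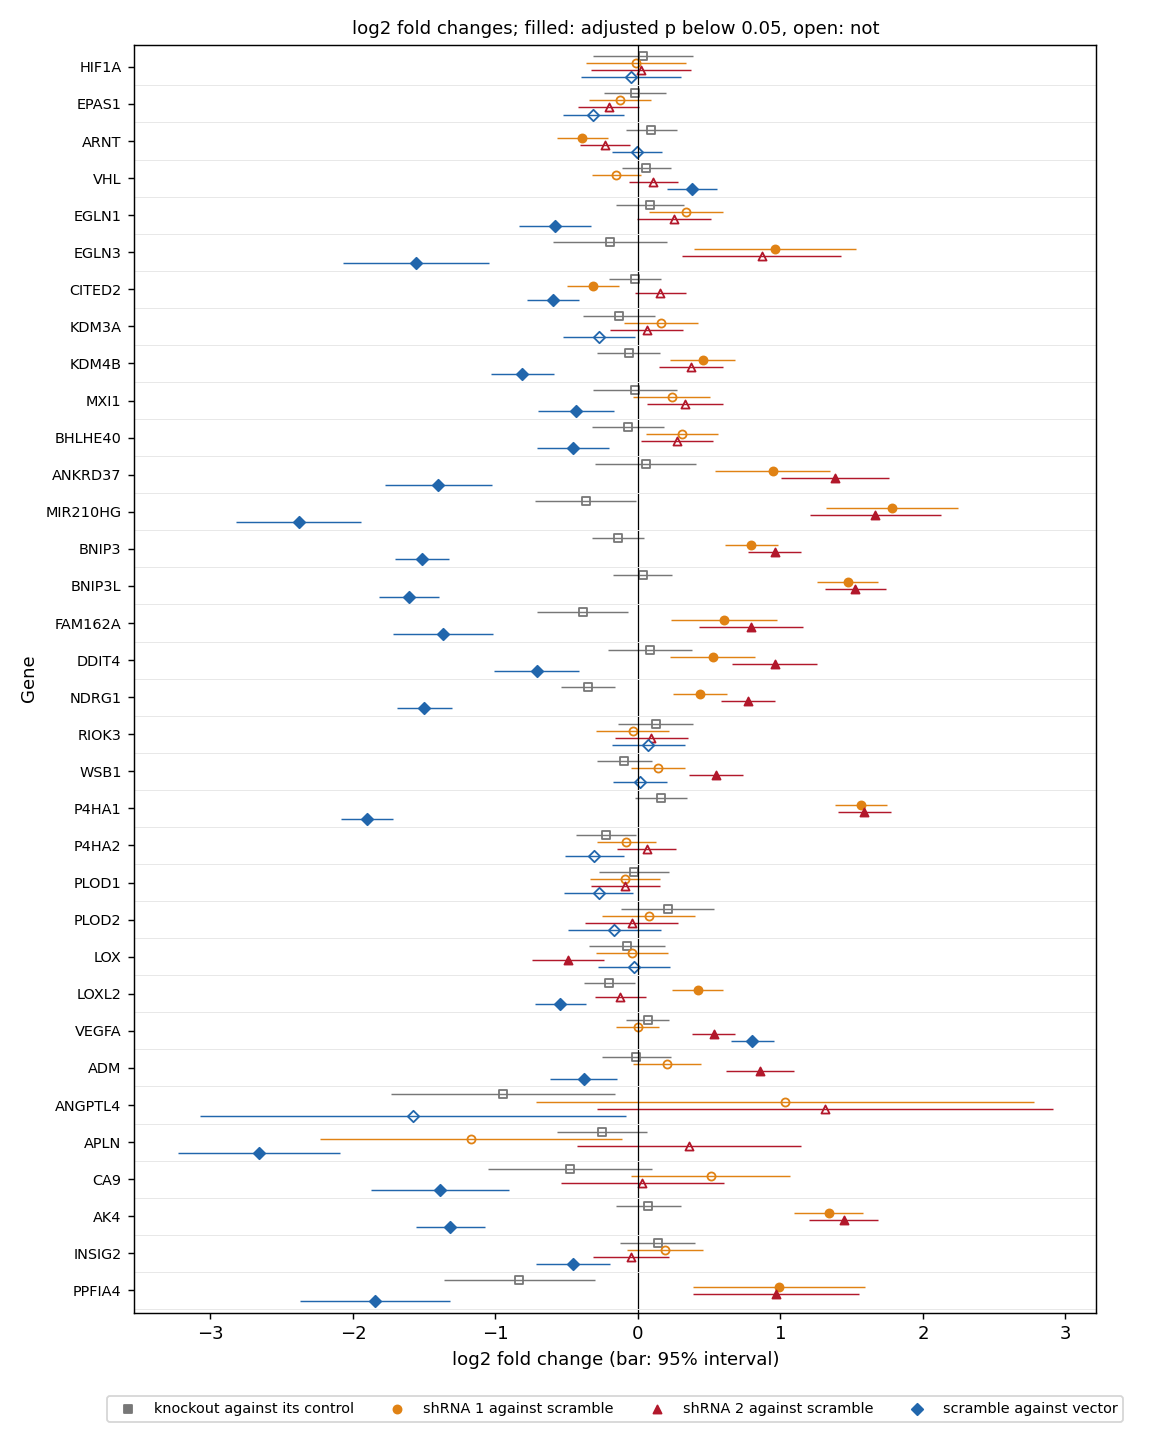
Fitted log2 fold changes (horizontal axis) with 95% intervals for the 34 genes in 4 comparisons, with filled marks where the edgeR adjusted p was below 0.05. Knockout marks are all open, and most scramble-against-vector marks lie left of 0 while the filled hairpin-against-scramble marks lie mostly right of it.

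The knockout was compared with its control to ask the same question by gene editing. None of the 34 genes was called in edgeR, DESeq2 or limma-voom, and 7 had an unadjusted p below 0.05 in edgeR. The background was low too, with 0.015% of tested genes called. The median was -0.025, and the differences ran from -0.94 for ANGPTL4 to 0.21 for PLOD2. Genes that were lowest with scramble in the other arm are given first. P4HA1 was at 220.0 and 252 CPM in the control and 268 and 259.7 in the knockout. BNIP3L was at 153 and 180.3 in the control and 178 and 164 in the knockout. AK4 was at 73.7 and 88.4 in the control and 89.1 and 81.2 in the knockout. The groups overlapped for BNIP3L and AK4 and did not for P4HA1, whose difference was 0.16 (interval -0.018 to 0.34).

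NDRG1 had the lowest p in the knockout comparison. It was at 468 and 393 CPM in the control and 333 and 344 in the knockout, a log2 difference of -0.35 with no overlap (SE 0.086, edgeR adjusted p 0.44). Its SE was 0.14 in a fit to the knockout arm alone. PPFIA4 was at 5.29 and 3.83 CPM in the control and 2.37 and 2.78 in the knockout (-0.83, edgeR adjusted p 0.53). MIR210HG was at 25.9 and 17.5 CPM in the control, against 15.9 and 17.9 in the knockout, so the groups overlapped (-0.37). FAM162A was at 50.8 and 36.8 CPM in the control, against 31.7 and 35.3 in the knockout, with no overlap (-0.39).

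The result of this comparison changed with the control library left out. Each such fit keeps 1 control library, so the spread between the control libraries no longer enters it. Without knockout control replicate 2, 14 of the 34 genes were called, 5 up and 9 down, where 30.3% of all tested genes were called. Without knockout control replicate 1 none was. HIF1A is an example: it was at 107 and 163 CPM in the control libraries, on either side of the knockout's 151 and 126. PLOD2 was at 744 and 1138 in the control and 1148 and 1027 in the knockout. Without replicate 2 the log2 difference of PLOD2 was 0.54, that of HIF1A 0.36 and that of NDRG1 -0.47. Fibroblast marker sums were 3138 to 3506 CPM in the control and 3829 to 4024 in the knockout, and 1 of 12 tested markers was called up; their part was not tested.

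The knockout effect was then tested against the knockdown effect in 1 model, taking scramble as the control of the hairpins. The difference was called for 9 of the 34 genes, all lower in the knockout contrast, where the background was 0.456% down and 0.643% up. They were MIR210HG (-2.09), PPFIA4 (-1.81), BNIP3L (-1.46), P4HA1 (-1.41), AK4 (-1.32), ANKRD37 (-1.11), FAM162A (-1.09), BNIP3 (-1.02) and NDRG1 (-0.95). P4HA1 had the lowest p (SE 0.11, edgeR adjusted p 0.00051). In a fit to the knockout arm alone, the SE of the P4HA1 knockout effect was larger, at 0.15. With the mean of scramble and vector as the control of the hairpins, 5 were called, 4 lower and 1 higher, where 1.5% of all tested genes were called. The count was 24 without knockout control replicate 2, where 24.5% of all tested genes were called, and 12 without replicate 1, where 5.18% were. It was lower without any 1 of the other 8 libraries in the contrast, as was the share of all tested genes called.

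Other genes of the pathway were read from 2 lists. Of 14 tested genes of the HIF machinery (ubiquitin ligase partners, coactivators and chaperones), 0 rose and 2 fell with both hairpins against scramble, where 3.11% of all tested genes rose and 3.66% fell. ARNT2, a relative of ARNT, was at 30.6 and 29.8 CPM with scramble, 12.9 and 12.9 under shRNA 1, 16.9 and 19.4 under shRNA 2 and 10.03 and 12.3 in vector, and fell against scramble by 0.98 (edgeR adjusted p 0.00055). Scramble was its highest group. The chaperone gene HSP90AA1 was at 479.5 and 479.6 CPM with scramble, 479 and 477 under shRNA 1 and 313 and 299 under shRNA 2. It fell by 0.33 as the average of both hairpins, while its value with shRNA 1 was -0.0056. SIAH2, a ligase that targets the hydroxylases, was at -0.27 and the tumour suppressor ING4 at 0.35, and neither passed.

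Of 43 other tested hypoxia genes, 5 rose and 3 fell with both hairpins against scramble (median 0.096), beside the same 3.11% and 3.66%. With scramble, 3 were higher and 21 lower than with vector (median -0.41), where 7.1% of all tested genes were higher and 8.16% lower. The 3 that were higher with scramble than with vector are a share near that background. CCNG2, a cyclin (0.68), and ERRFI1, an inhibitor of EGF receptor signalling (0.60), rose against scramble. IGFBP3, an insulin-like growth factor binding protein, was at 203 and 201 CPM with scramble, 153 and 167 under shRNA 1, 87.5 and 88.8 under shRNA 2 and 365 and 375 in vector. STC2, a secreted glycoprotein, was at 270.4 and 257 CPM with scramble, 172 and 166 under shRNA 1, 150.2 and 156 under shRNA 2 and 378 and 377 in vector. Both genes were lowest with the hairpins and fell against scramble (-0.77 and -0.71) and against vector (-1.64 and -1.23). In the knockout 0 of the 14 and 0 of the 43 genes were called in edgeR, with 1 and 5 at an unadjusted p below 0.05. The knockout effect was above the knockdown effect for 1 gene of each list, SIAH2 (0.64) and IGFBP3 (0.87), and below it for 0.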

How the data were processed

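The deposited table holds raw counts of reads for each gene symbol in the 12 libraries, not normalised by the authors. Per the submitters' processing notes the tools and build included bcl2fastq, STAR 2.5 and hg19. How reads were counted, whether by strand and on which annotation is not given in the sources used here. Of the 34 genes, 10 have exons that overlap exons on the other strand in GENCODE, 3 of them with a tested gene (HIF1A, FAM162A and P4HA2), so their reads may be shared. The level of the targeted gene is not reported here.

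The analysis used edgeR 4.0.16 in R 4.3.3: filterByExpr (minimum count 10), TMM scaling and a quasi-likelihood fit of all 6 groups together, with two-sided tests and Benjamini-Hochberg adjustment over 13365 genes within each comparison. Intervals are 95%. Levels are TMM-normalised CPM per library. All 34 genes were named, and from each further list up to 4 with the smallest adjusted p against scramble. The genes and lists were chosen with earlier results of these data known. Of 123 entries in the further lists, 122 were matched, 3 through an older symbol. The procedure was tested on simulated data. Alternatives were DESeq2 1.42.0, limma-voom (limma 3.58.1), other size factors and filters, each arm alone, a replicate block, the mean of scramble and vector as control, and leaving out each library. Figures were drawn with matplotlib 3.10.9.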

Additional observations from a re-analysis of the deposited data

Results flagged for a closer look

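The knockout effect differed from the effect of both hairpins against scramble for 9 genes, by a test of the difference itself in edgeR. The log2 differences were -2.09 for MIR210HG, -1.81 for PPFIA4, -1.46 for BNIP3L, -1.41 for P4HA1, -1.32 for AK4, -1.11 for ANKRD37, -1.09 for FAM162A, -1.02 for BNIP3 and -0.95 for NDRG1. The 9 values share the scramble libraries, in which all of these genes were at their lowest level of the knockdown arm.

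The effect of shRNA 1 differed from that of shRNA 2 for 8 genes, by the same kind of test. The log2 differences were -1.53 for APLN, -0.65 for ADM, -0.53 for VEGFA, -0.47 for CITED2, -0.41 for WSB1, -0.33 for NDRG1, 0.45 for LOX and 0.54 for LOXL2. The APLN value rests on 3 and 5 counts in the shRNA 1 libraries.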

How the results depend on the processing

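Without 1 library at a time, the number of the 34 genes called ran from 6 to 11 for both hairpins against scramble (16 with all libraries), 5 to 6 for shRNA 1 and 10 to 11 for shRNA 2 against scramble, 8 to 18 for both hairpins, 5 in each case for shRNA 1 and 11 to 14 for shRNA 2 against vector, 16 to 18 for scramble against vector, 3 to 4 between the hairpins, 0 to 14 for the knockout and 6 to 24 for the knockout effect against the knockdown effect. These ranges cover only the libraries that enter each comparison, and each such fit leaves 1 library in a group. Counts without a library outside the comparison are not given. In the hairpin and scramble comparisons, each of these fits also called a smaller share of all tested genes than the fit to all libraries. Without 1 knockdown-arm library at a time, genes lowest with scramble numbered 18 to 20, where 9.93% to 15.7% of all tested genes were. The count of 20 went with 14.8%. With CPM not scaled by TMM, 17 of the 34 were lowest (8.12% of all tested genes), and with no filter 17 (6.65%). With the stricter filter 17 of 33 were lowest (9.83%). In the arm alone 23 were called for shRNA 2 against scramble, 27 for shRNA 1 against vector and 17 between the hairpins. There 31.5%, 40.7% and 38.8% of all tested genes were called. Adding a replicate block to that fit gave 23, 27 and 17 again, where 30.2%, 39.3% and 37.4% of all tested genes were called. With the mean of scramble and vector as control, 5 genes differed between the knockout and knockdown effects, both hairpins had 9 genes up and 5 down with a median of 0.036 in place of 0.29, and NDRG1 with both hairpins changed sign to -0.15 (edgeR adjusted p 0.15); the vector libraries enter by construction. In the fit to all libraries, the replicate block gave 15 genes called for both hairpins against scramble and 10 in place of 15 for shRNA 1 against scramble. It gave 6 in place of 9 for the knockout against the knockdown effect. In these 3 comparisons it called 4.92%, 6.86% and 0.449% of all tested genes. Same-numbered libraries correlated at -0.47 in the knockout arm and at -0.037 to 0.0045 in the knockdown arm, so the numbers do not pair them. A crossed block in the knockout arm, added after the data had been seen, called 0 of the 34 genes and 72 genes in all. DESeq2, limma-voom, other size factors and other filters kept each count within 1.5 times of the value given. Over single genes and settings, 3949 values kept their side of the threshold, of which 92, not called in either setting, changed sign. The call was lost for 304 and gained for 190, all with the sign kept, and 1 called value reversed.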

Other observations

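Several of the genes were at different levels in the arms, which differ in doxycycline and construct and were not compared by a test. LOX was at 50.6 to 66.5 CPM in the 4 knockout-arm libraries and at 347 to 511 CPM in the 8 knockdown-arm libraries. APLN lay the other way, at 16.9 to 23.4 CPM in the knockout arm and 0.270 to 6.11 CPM in the knockdown arm. EGLN1 was at 87.4 to 109 CPM in the knockout arm and 33.2 to 51.0 CPM in the knockdown arm, while EPAS1 was at 135.6 to 165.8 CPM and 279.6 to 404.8 CPM. These 4 genes were chosen after their values were seen.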
